A study of Sus scrofa with 90 samples.

Results

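Lesions of the pig Longissimus dorsi, a muscle of the back, were compared at 2 ages: 7 d and 6 h after an intramuscular injection of propylene glycol, a solvent used to carry injected drugs. A lesion was chosen by the age in its sample name. Of 48 muscle samples from 10 piglets, named by the letters C to L, 18 entered the comparison, with 9 lesions of 7 d and 9 of 6 h. Both ages came from the same animal in 8 pigs (C, D, E, G, H, I, K and L). Pig F entered with its 7 d lesion alone and pig J with its 6 h lesion alone. The remaining groups were 10 muscle sites that received no injection (control), 10 lesions of 2 d and 9 lesions of 21 d. All lesions of a pig shared the same agent and the same muscle, and the sites were allotted at random. The control came from an animal that also carried lesions, so no group came from an untreated pig. The labels name no strain, sex or age for the piglets.

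A solvent that kills muscle fibres is followed by an ordered repair. In the first hours fibres break down and innate immune cells enter. Over the following days debris is cleared, satellite cells divide and fuse, new fibres form and connective tissue is laid down. The comparison thus sets the early breakdown beside a stage at which repair is under way. XIRP2 (Xin actin-binding repeat containing 2) binds actin at the Z disc and at the ends of muscle fibres, and proteins of the Xin family gather at damaged and remodelling myofibrils. ANPEP is aminopeptidase N (CD13), a peptidase on the surface of myeloid, epithelial and stromal cells. PFKM, the muscle phosphofructokinase, is a main control point of glycolysis, and POMC is the precursor of several peptide hormones, among them ACTH.

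Each sample was hybridised to a nylon cDNA array, and the deposited table holds log-scale values for 4608 listed features. A value was present in every column for 1908 features, which were tested. A difference of 1 log unit is 2-fold if the base is 2 and 2.72-fold if the logarithm is natural (the labels do not state the base). A symbol was listed for 206 of the tested features, for 121 genes, and a gene was read from its feature with the highest mean. The link between symbol and feature is uncertain, so a gene name below stands for the feature listed under it. The 6 h array of pig F was left out because its values lay 384 features out of register (r = 0.240 with the mean of the other arrays in place, 0.739 when moved). For the 6 h lesion of pig J 1 column was left out too, since it repeated the control values of pig I. The tissue is a mixture of cells, so fewer cells of a type and less RNA per cell cannot be told apart. Muscle fibre markers were measured for 11 of 17 listed genes and their mean value ran from 0.687 to 1.11 at 6 h and from 0.674 to 1.03 at 7 d. Of the markers of neutrophils, macrophages, lymphocytes, fibroblasts, adipocytes, satellite cells and red blood cells 0 were measured, and of those of endothelium 1 (PECAM1). The cell make-up of the lesions, and its part in the results, was therefore not tested.

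At 7 d, 22 features were higher than at 6 h and 9 were lower. These are the features called by limma at an adjusted p below 0.05, where the p was adjusted by the Benjamini-Hochberg method over all 1908. The share called was 1.62% of the tested features, with 1.15% higher and 0.472% lower. The rises ran from 0.30 to 1.25 log units with a median of 0.56, and the falls from -0.56 to -0.34 with a median of -0.47. The median difference over all features was 0.004. Of the 121 genes with a symbol, 4 were called (3.31%). XIRP2 and ANPEP rose, and PFKM and POMC fell. The other 27 called features carried no symbol. An unadjusted p below 0.05 was reached by 190 features (9.96%) and by 13 of the 121 genes (10.7%). Each of the 31 called features had a mean value above the median of all features.

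The count of called features depended on how the arrays were scaled. The values had been quantile normalised, which gives every array the same distribution. On the table values as deposited limma called 0 features, while 112 had an unadjusted p below 0.05, and the smallest adjusted p was 0.0748. With each array only centred on its median 1 was called (feature 7896). All 31 kept their sign under each of the 14 alternative settings and in each of the 10 fits that left out a pig. In those fits the count was 10 without pig L, 13 without K, 14 without E, 20 without F, G or I, 21 without D and 24 to 39 without each of the others. Of the 31 features, 9 were called in every fit except those on table values or median-centred values, or on table values alone. They were XIRP2 and features 7896, 4853, 5127, 5139, 6477, 6682 and 7368, all higher at 7 d, and feature 5438, lower at 7 d.

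**Figure D1:**
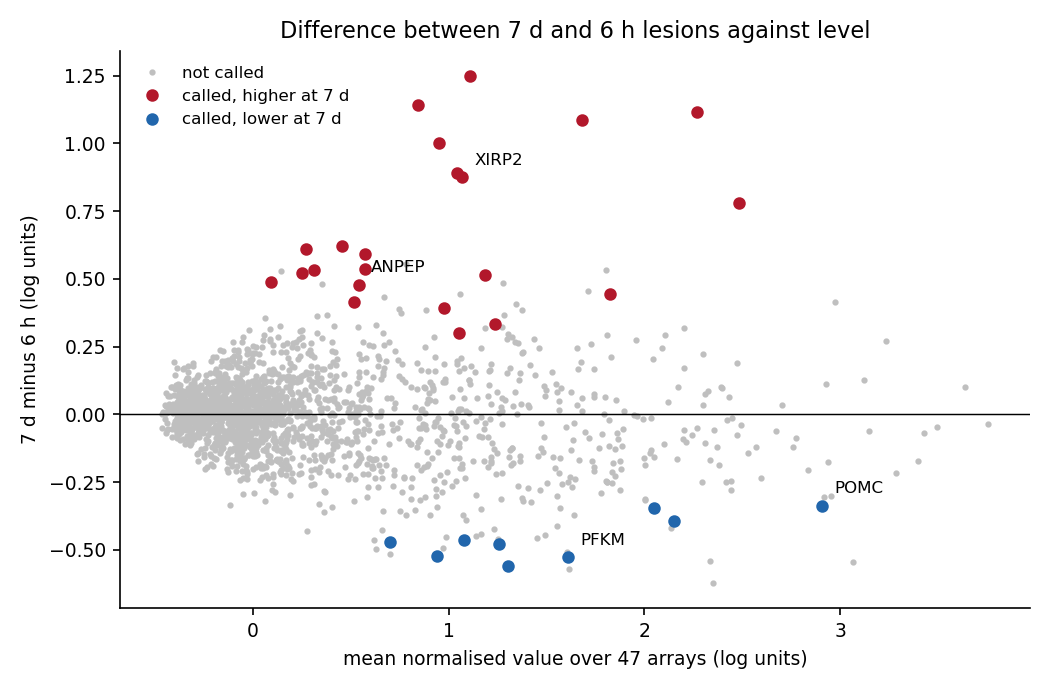
Difference between 7 d and 6 h lesions (vertical axis, log units) of each of the 1908 tested features against its mean normalised value over 47 arrays (horizontal axis, log units). Red points are the 22 features called higher at 7 d, blue points the 9 called lower and grey points the others; the called features lie above the median mean value, and XIRP2 at 0.87 is the highest of those with a symbol.

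XIRP2 had the largest difference among the genes with a symbol. The feature was at 0.76, 1.16 and 1.49 (lowest, median and highest of 9 arrays) at 6 h and at 1.61, 1.99 and 2.67 at 7 d. Every 7 d lesion was thus above every 6 h lesion, and every lesion of both ages was above the highest control, 0.36 (control mean -0.004 ± 0.14, SD, n = 10). XIRP2 was 1 of 4 features whose 7 d and 6 h arrays did not overlap with 7 d higher (0.21% of those tested), and 0 features were separated the other way. The fitted difference was 0.87 (SE 0.119, 95% interval 0.63 to 1.12, limma adjusted p = 4.03e-06), a 1.83-fold rise if the log base is 2 and 2.40-fold if it is natural. It was higher at 7 d in 8 of 8 pigs (two-sided exact sign-flip p = 0.0078, the smallest that 8 pigs allow), by 0.45 in pig C up to 1.91 in pig D. Pig D had the lowest 6 h value and the highest 7 d value.

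Without each pig in turn the XIRP2 difference was called in 10 of 10 fits. On table values it was 0.47 (limma adjusted p = 0.798), with 7 of 8 pigs higher and pig I at -0.11. On median-centred values it was 0.48 (limma adjusted p = 0.624). The SD of table values within an array was lower at 7 d than at 6 h in 5 of 8 pigs and higher in pigs C, K and L, and its part in the XIRP2 difference was not tested.

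Over the course of the lesion XIRP2 did not climb steadily. At 6 h it was 1.21 above control (limma adjusted p = 3.22e-10) and at 2 d 0.08 (adjusted p = 0.798). At 7 d it was 2.08 above control (limma adjusted p = 2.29e-17) and at 21 d 2.22 (adjusted p = 1.6e-18). The 21 d and 7 d lesions differed by 0.14 (SE 0.119, limma adjusted p = 0.808). The rise between 6 h and 7 d is therefore a difference between 2 high levels with a low level in between, and the first high level was the lower. The comparisons with control share the 6 h and 7 d arrays with the comparison of these ages.

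**Figure D2:**
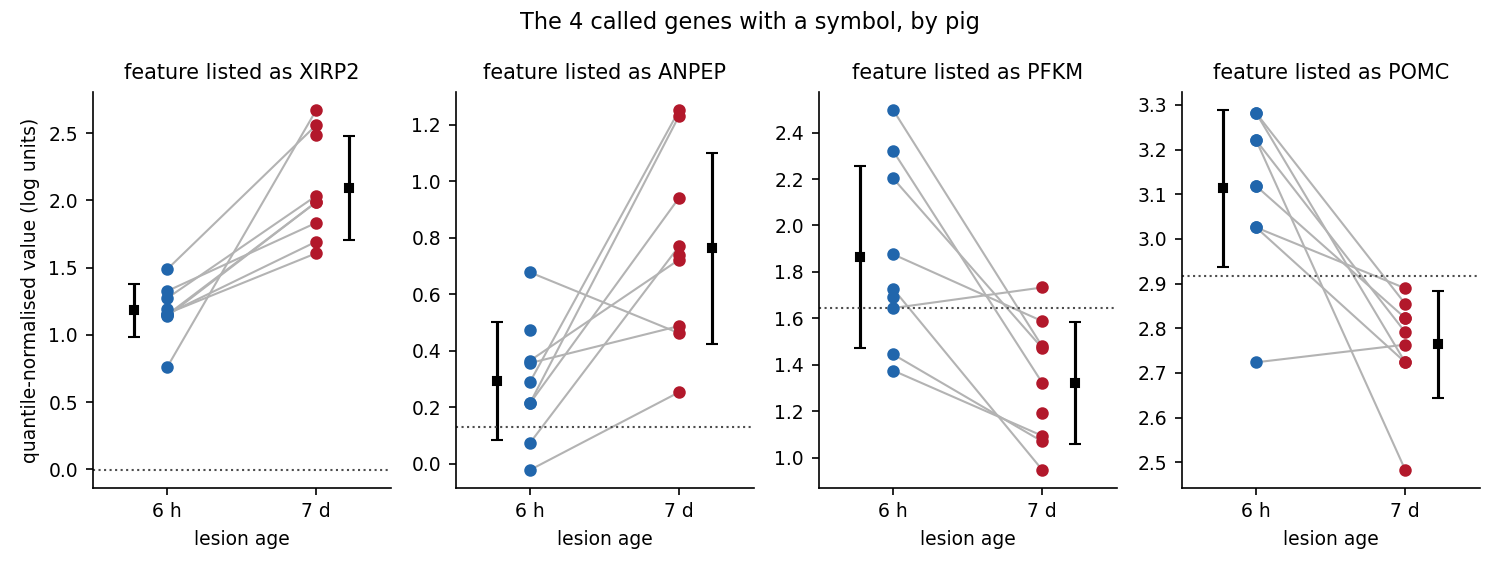
Quantile-normalised values (log units) of the 4 called genes with a symbol in each pig at 6 h (blue) and 7 d (red), with lines joining the lesions of 1 pig, black squares and bars for the mean and SD of 9 arrays, and a dotted line for the control mean. XIRP2 was higher at 7 d in 8 of 8 pigs with no overlap, ANPEP was higher in 7 of 8, and PFKM and POMC were lower in 7 of 8, all 3 with overlap between the ages.

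ANPEP was at -0.02, 0.29 and 0.68 (lowest, median and highest of 9) at 6 h and at 0.25, 0.74 and 1.25 at 7 d. The groups overlapped, and 6 of the 9 lesions of 7 d were above the highest lesion of 6 h. The difference was 0.48 (SE 0.124, 95% interval 0.23 to 0.73, limma adjusted p = 0.0368), with 7 of 8 pigs higher and pig I lower by 0.22 (two-sided exact sign-flip p = 0.0234). ANPEP was 0.17 above control at 6 h (limma adjusted p = 0.408) and 0.19 at 2 d (adjusted p = 0.609), neither of them called. It was 0.64 above control at 7 d (limma adjusted p = 8.47e-05) and 1.12 at 21 d (adjusted p = 3.75e-09). Its level was highest in the oldest lesions, although the step from 7 d to 21 d missed the threshold (0.48, limma adjusted p = 0.0558). A second feature listed as ANPEP had a low mean value in both groups, -0.42 at 6 h and -0.34 at 7 d, and differed by 0.05 (SE 0.091, adjusted p = 0.922). The call was lost without pig D, E, F, H, K or L (limma adjusted p up to 0.165), with array SD in the model (adjusted p = 0.079) and in a paired fit of the 2 ages alone (adjusted p = 0.132). Neither was it called on table values, where it was 0.27.

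PFKM was at 1.38, 1.73 and 2.50 (lowest, median and highest of 9) at 6 h and at 0.95, 1.32 and 1.73 at 7 d. The groups overlapped, and 5 of the 9 lesions of 7 d were below the lowest of 6 h. The difference was -0.53 (SE 0.127, 95% interval -0.78 to -0.27, limma adjusted p = 0.0195), lower in 7 of 8 pigs (two-sided exact sign-flip p = 0.0156). It was 1.44-fold lower if the log base is 2. The largest falls were those of pigs H and E at -1.02 and -0.998, and in pig I the value was higher by 0.09. Neither age was called against control, with 0.21 at 6 h (limma adjusted p = 0.271) and -0.31 at 7 d (adjusted p = 0.0558). The call between the ages thus joined a mean above control at 6 h to a mean below it at 7 d.

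A second PFKM feature, of lower mean value, gave a different picture. It was above control at both ages, by 0.30 at 6 h (limma adjusted p = 0.0187) and by 0.27 at 7 d (adjusted p = 0.0184). Between the ages it differed by -0.03 (SE 0.0898, adjusted p = 0.963). The fall is therefore a result of 1 of the 2 features listed as PFKM. Its call was lost without pig E, H, K or L (limma adjusted p up to 0.0873), on table values (-0.76, adjusted p = 0.484), in the paired fit of the 2 ages (adjusted p = 0.0549) and after a local trend along the feature list was subtracted (adjusted p = 0.0556).

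POMC was at 2.72, 3.12 and 3.28 (lowest, median and highest of 9) at 6 h and at 2.48, 2.79 and 2.89 at 7 d. At 6 h 8 of the 9 lesions were above every 7 d lesion, and pig D lay among the 7 d values. The difference was -0.34 (SE 0.085, 95% interval -0.51 to -0.17, limma adjusted p = 0.0295), lower in 7 of 8 pigs (two-sided exact sign-flip p = 0.0156). On table values it was lower in 8 of 8 pigs with a fitted difference of -0.67, not called (limma adjusted p = 0.826). On those values 75.1% of all features with a mean above the median were lower at 7 d. With arrays median centred and scaled to the mean SD the POMC difference was -0.20 (limma adjusted p = 0.846). Neither age was called against control (0.20 at 6 h, limma adjusted p = 0.105, and -0.14 at 7 d, adjusted p = 0.239). The feature lay at the 99.2 percentile of mean value. POMC is a hormone precursor best known from the pituitary, and whether the symbol belongs to this feature was not tested. The call was lost without pig E, F, G, H, I, K or L (limma adjusted p up to 0.167), and with the out-of-register array of pig F kept the difference was -0.03 (adjusted p = 0.967).

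The largest rises carried no symbol. Feature 7368 was at 0.47, 0.999 and 1.29 (lowest, median and highest of 9) at 6 h and at 1.59, 2.12 and 3.17 at 7 d, a difference of 1.25 (SE 0.226, limma adjusted p = 0.000591). Feature 7896 was at 0.20, 0.44 and 0.78 at 6 h and at 0.83, 1.69 and 1.88 at 7 d, a difference of 1.14 (SE 0.116, adjusted p = 9.56e-09). Feature 4853 was at 0.94, 1.25 and 1.64 at 6 h and at 2.03, 2.34 and 3.03 at 7 d, a difference of 1.09 (SE 0.127, adjusted p = 1.26e-07). With XIRP2 these are the 4 features whose ages did not overlap. Feature 5139 was at 1.73, 2.35 and 2.70 at 6 h and at 2.67, 3.47 and 3.93 at 7 d, and differed by 1.11 (limma adjusted p = 1.92e-08). Here 8 of the 9 lesions of 7 d were above the highest of 6 h, and the same count held for features 6682 and 6477. Feature 6682 differed by 1.001 (limma adjusted p = 4.09e-06) and feature 6477 by 0.89 (adjusted p = 9.61e-06). All 6 were higher in 8 of 8 pigs, with an unadjusted two-sided exact sign-flip p of 0.0078 each. They were chosen as the largest called rises in these same arrays, so the count of pigs is a description. A rise in 8 of 8 pigs was found for 12 of the 22 features called higher, and for 1.15% of all tested features.

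Pig C had the smallest median rise over the 22 features, at 0.25, and pig D the largest, at 0.997. The median was between 0.54 and 0.89 in the other 6 pigs. For feature 7896 the 7 d lesion of pig C stood apart at 0.83, while the next lowest was 1.53. The within-array SD of pig C was close at both ages, 0.774 at 6 h and 0.782 at 7 d, while that of pig D was 0.587 and 0.384. The part of this spread in the size of the rises was not tested.

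Among the called features without a symbol the largest fall was that of feature 5279, at 1.06, 1.46 and 1.64 (lowest, median and highest of 9) at 6 h and at 0.35, 0.88 and 1.29 at 7 d. The groups overlapped, and 7 of the 9 lesions of 7 d were below the lowest of 6 h. The difference was -0.56 (SE 0.133, limma adjusted p = 0.0178), lower in 8 of 8 pigs. Feature 5438 had the smallest adjusted p among the falls. It was at 0.99, 1.31 and 1.78 at 6 h and at 0.48, 0.89 and 1.19 at 7 d, a difference of -0.48 (SE 0.0901, limma adjusted p = 0.00104), lower in 7 of 8 pigs. Features 5039, 5408, 4971 and 5175 fell by 0.52, 0.47, 0.46 and 0.39, with overlap of the ages in each (limma adjusted p between 0.0295 and 0.0491). Of these, 4971 and 5175 were lower in 8 of 8 pigs and the other two in 7. A fall in 8 of 8 pigs was found for 4 of the 9 features called lower, and for 1.05% of all tested features. The call of feature 5279 was lost without pig D, E, H, K or L, and that of feature 5438 was kept in 10 of 10 fits without a pig.

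**Figure D3:**
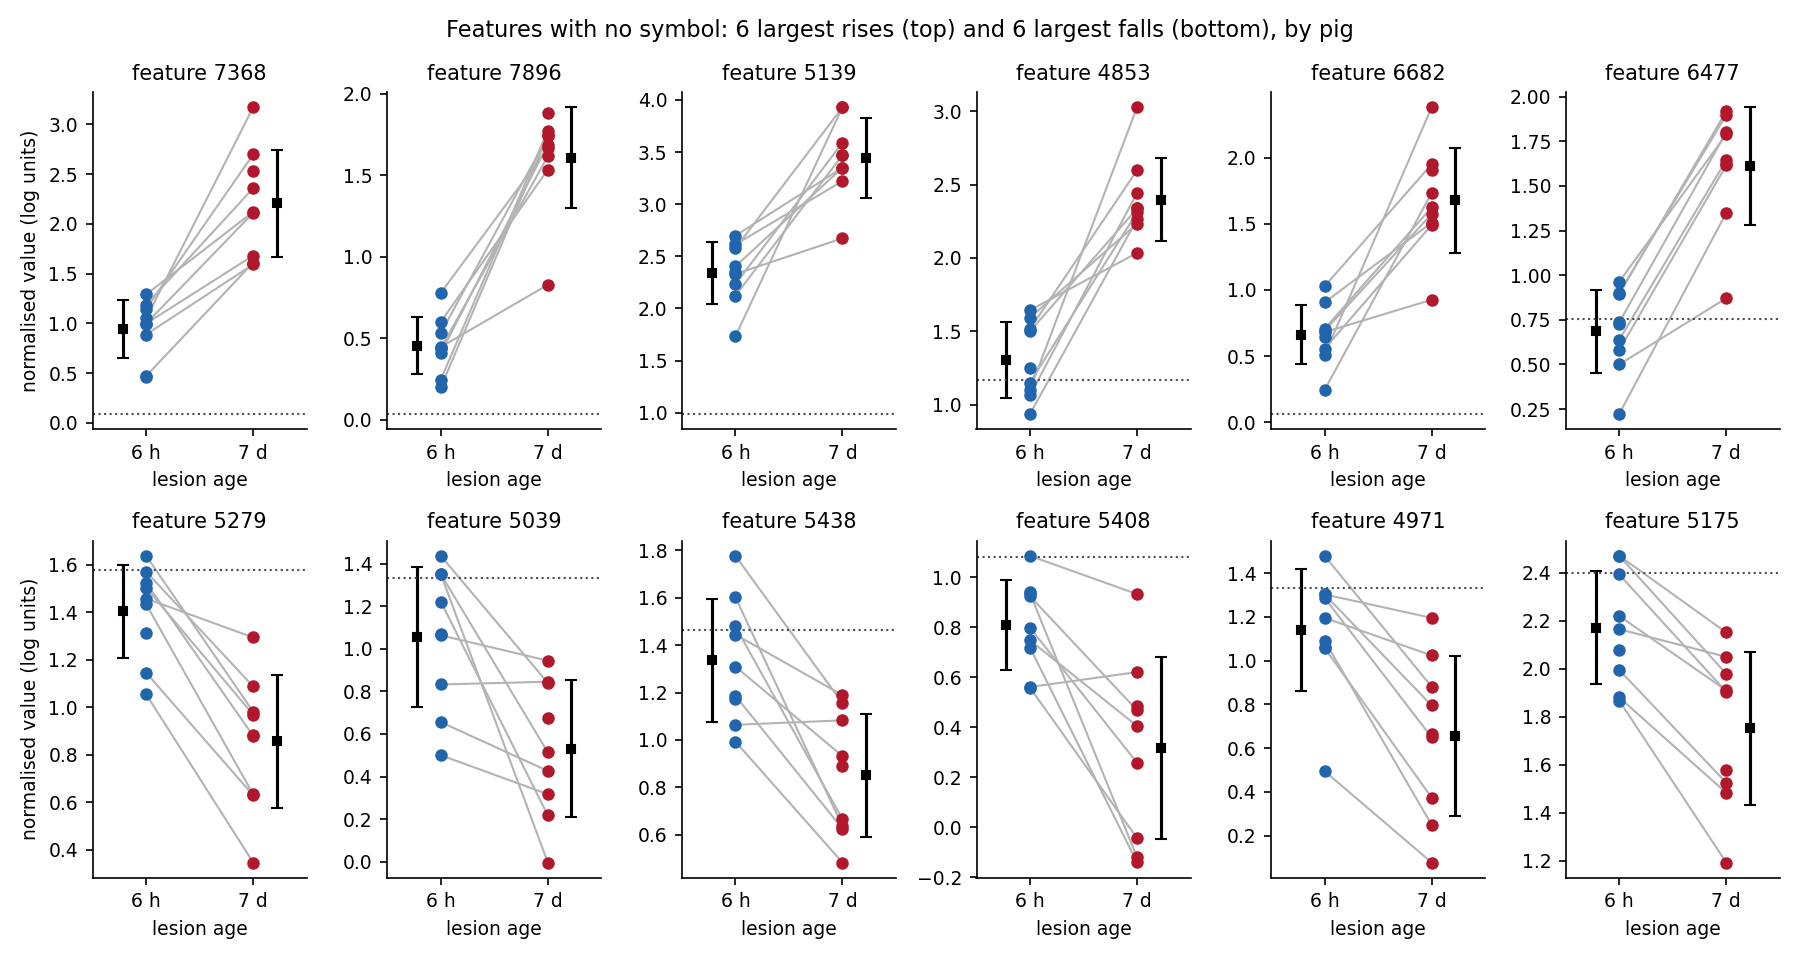
Quantile-normalised values (log units) in each pig at 6 h (blue) and 7 d (red) of the 6 largest rises (top) and the 6 largest falls (bottom) among called features with no symbol, with lines joining the lesions of 1 pig, black squares and bars for the mean and SD of 9 arrays, and a dotted line for the control mean where it lies in range. The 6 rises were seen in 8 of 8 pigs, and 2 of them (features 4853 and 6477) had a 6 h mean near the control.

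The 22 rises were split into 2 groups by whether they were called above control at 6 h. The 6 h and 7 d arrays enter these comparisons too, so the grouping is a description. A first group of 12, XIRP2 among them, was already above control at 6 h (6.92% of all features were called higher than control at 6 h). Their median difference from control was 0.63 at 6 h, 0.07 at 2 d and 1.41 at 7 d, with 1.30 in the 21 d lesions. A second group of 10, ANPEP among them, was not called against control at 6 h. Their medians were 0.12 at 6 h, 0.03 at 2 d and 0.66 at 7 d, with 1.01 in the 21 d lesions. The 6 h difference from control was at least 0.40 in the first group and at most 0.31 in the second. The groups thus nearly met, and whether they follow separate courses was not tested. At 7 d 21 of the 22 were called higher than control (10.7% of all features were), the exception being feature 4769. Feature 5139, of the first group, went from a control mean of 0.99 to 2.34 at 6 h, 1.08 at 2 d and 3.44 at 7 d, ending with 3.75 at 21 d. Feature 4853, of the second, went from 1.17 to 1.31, 1.18, 2.40 and 2.46.

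The 2 d and 21 d lesions and the control are not the groups set against each other in the contrast of 7 d with 6 h, but their arrays were normalised and fitted together with those of both ages. At 2 d 0 of the 22 rises were called against control by limma, and 3 had an unadjusted p below 0.05 (0.734% of all features were called higher). At 21 d 19 of the 22 were called higher than control (6.5% of all features) and 0 lower. The exceptions were features 7474, 4769 and 4832, which differed from control by -0.02, 0.10 and -0.21 at 21 d. Between 7 d and 21 d features 7896, 6682 and 7477 rose further, by 0.63, 0.63 and 0.53 (limma adjusted p = 0.00215, 0.0147 and 0.0113). Features 4832 and 4856 fell in that interval by 0.75 and 0.50 (adjusted p = 0.000337 and 0.0327). Over all features 0.157% were called higher and 0.524% lower between 7 d and 21 d. The other 17 rises were not called in that interval, and of the 22 together 14 had an unadjusted p below 0.05.

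PFKM and POMC were above the control mean at 6 h, uncalled. By limma 0 of the 9 falls were called against control at 6 h or at 2 d. Such calls were few among the tested features too. At 6 h 4.87% were called lower and 6.92% higher, and at 2 d 0 lower and 0.734% higher. The lack of calls therefore does not set the 9 falls apart. At 6 h 4 of the 9 had an unadjusted p below 0.05, and at 2 d 2 of the 9 had. The median difference of the 9 falls from control was -0.18 at 6 h, -0.08 at 2 d and -0.64 at 7 d, with -0.32 in the 21 d lesions. At 7 d 7 of the 9 were called lower than control (14.6% of all features were). At 21 d 7 of the 9 were called lower than control (8.23% of all features were), and PFKM and POMC were not. Between 7 d and 21 d limma called 0 of the 9, with 4 at an unadjusted p below 0.05, and 8 of the 9 were higher at 21 d. The 9 were chosen for low values in these same 7 d arrays. That choice favours both a low place against control at 7 d and a higher value at 21 d. These counts are therefore a description, and a return towards control was not tested.

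**Figure D4:**
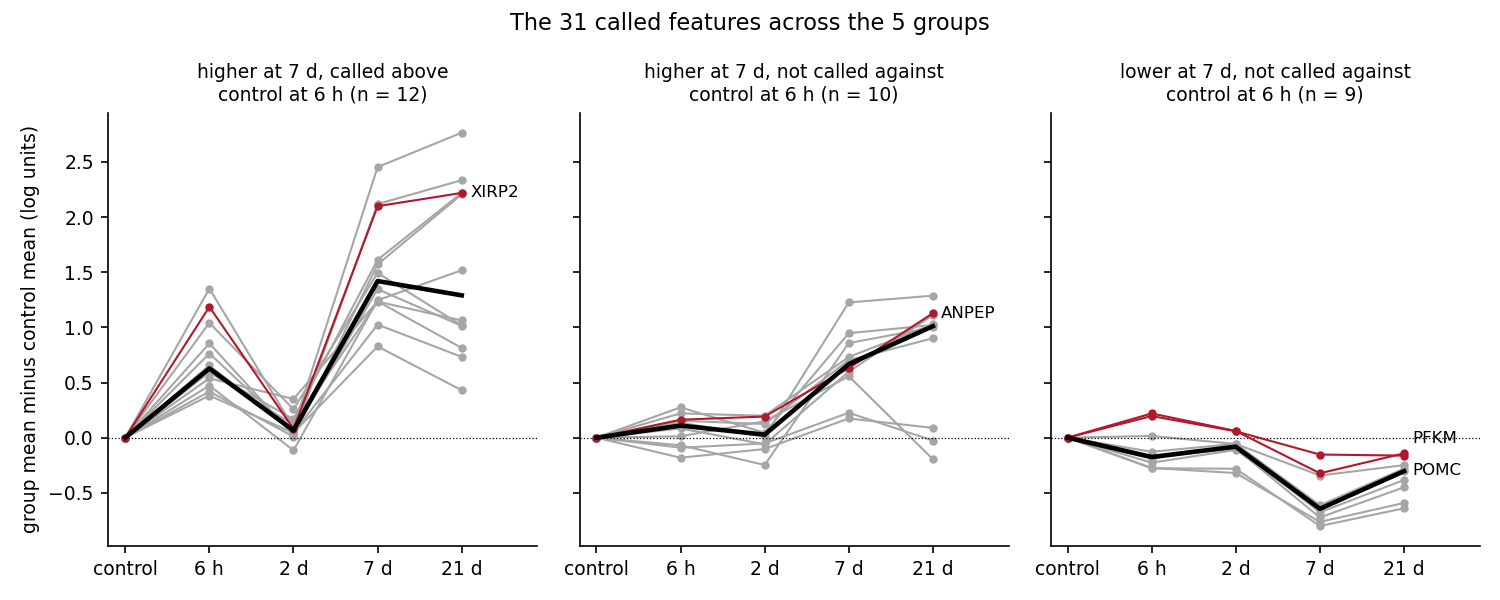
Group means minus the control mean (log units) of the 31 called features at each lesion age, with 12 rises already above control at 6 h (left), 10 rises not called against control at 6 h (middle) and 9 falls (right). Thin lines are single features, the 4 with a symbol in red, and the thick black line is the median, which in the left panel runs from 0.63 at 6 h through 0.07 at 2 d to 1.41 at 7 d.

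The places of the called features on the feature list are given here as a description, with no test of their spread. Of the 22 rises (1.15% of the tested features), 5 lay among features 7297 to 7680, where 173 were tested, and 6 among features 7681 to 8064, where 187 were tested. A further 4 lay among features 4609 to 4992 and 3 among features 4993 to 5376, with 236 tested in each. Of the 9 falls (0.472%), 5 lay among features 4993 to 5376 and 2 among features 5377 to 5760, with 236 tested in each. PFKM, POMC and ANPEP lie in the stretch from 4993 to 5376, and XIRP2 in that from 7297 to 7680. After a local trend along the list was subtracted from each array 17 features were called, all of them among the 31. What neighbouring places on the list share was not tested.

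Most features that were away from control at 6 h were not shown to differ at 7 d. Of the 132 called higher than control at 6 h, 12 were called higher at 7 d than at 6 h (1.15% of all features were) and 120 were not called between the ages. An unadjusted p below 0.05 was reached by 32 of the 132 (9.96% of all features reached it), and the median difference of the 132 was 0.06. Of the 93 called lower than control at 6 h (4.87% of all features), limma called 0 between the ages, with 7 at an unadjusted p below 0.05 and a median of -0.03. The 132 and the 93 were chosen by the same 6 h arrays that enter the difference between the ages. That choice favours a lower difference for the 132 and a higher one for the 93, so these counts and medians are a description. Among the genes, JAK1, a tyrosine kinase of cytokine receptors, was 0.68 above control at 6 h and 0.74 at 7 d. Its difference between the ages was 0.05 (95% interval -0.18 to 0.29, limma adjusted p = 0.941). HSPE1, the chaperonin 10 of mitochondria, was above control by 0.66 and 0.58 and differed by -0.08 (95% interval -0.26 to 0.11). MYH7, the slow myosin heavy chain, was above by 0.36 and 0.47 and differed by 0.11 (95% interval -0.08 to 0.30). That holds for 1 of the 4 features listed as MYH7, the one with the highest mean. Another, feature 4799, was called below control, at -0.40 at 6 h (limma adjusted p = 0.0185) and -0.59 at 7 d (adjusted p = 0.000178). Between the ages feature 4799 differed by -0.19 (adjusted p = 0.679). NPPA, a natriuretic peptide precursor, was above by 0.32 and 0.35 and differed by 0.03 (95% interval -0.18 to 0.24).

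Genes called below control at both ages were not called between them either. TPM2, beta-tropomyosin of the thin filament, was below control by -0.56 and -0.46 and differed by 0.10 (95% interval -0.13 to 0.33, limma adjusted p = 0.839). QDPR, which regenerates tetrahydrobiopterin, was at -0.34 and -0.38 and differed by -0.04 (95% interval -0.20 to 0.12). MAPK12, a p38 kinase of muscle, was at -0.27 and -0.29 and differed by -0.01 (95% interval -0.18 to 0.15). HTT, huntingtin, was at -0.36 and -0.39 and differed by -0.03 (95% interval -0.26 to 0.21). CKM, the muscle creatine kinase, was at -0.25 and -0.37 and differed by -0.12 (95% interval -0.28 to 0.04). The smallest called difference was 0.30 in size, which lies within the interval of TPM2 and outside those of QDPR, MAPK12, HTT and CKM. That size comes from these same data, and the genes were grouped by their calls below control at both ages. The absence of a difference was therefore not tested.

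Other genes were called against control at 7 d and not at 6 h, yet not between the ages. POMGNT1, which glycosylates dystroglycan, was -0.54 from control at 7 d and -0.19 at 6 h, and differed between the ages by -0.35 (limma adjusted p = 0.0942). TPT1, a translationally controlled tumour protein, was at -0.43 and -0.15 and differed by -0.28 (adjusted p = 0.145). TPI1, triosephosphate isomerase, was at -0.40 and -0.22 and differed by -0.18 (adjusted p = 0.50). COX7A1, a cytochrome oxidase subunit of muscle, was at -0.36 and -0.26 and differed by -0.10 (adjusted p = 0.812). CAPNS1, the small calpain subunit, was at -0.74 and -0.32 and differed by -0.42 (adjusted p = 0.402), lower in 8 of 8 pigs. Its 7 d group held 1 low array, pig G at 0.16, while the other 8 were at 1.49 or above. MIF, a cytokine, was called against control at 6 h (-0.43) and not at 7 d (-0.28), and differed between the ages by 0.15 (95% interval -0.14 to 0.44).

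Of 75 genes in 11 lists of muscle and repair functions, 3 were called, 1 each in 3 lists. Of 9 fast fibre sarcomere genes limma called 0, and 0 were at an unadjusted p below 0.05. The median was -0.03. MYL1, the fast myosin light chain, differed by 0.12 (limma adjusted p = 0.679), and MYH2, the fast oxidative myosin heavy chain, by -0.12 (adjusted p = 0.791). Of 7 slow fibre and cardiac-type genes 0 were called, with 1 at an unadjusted p below 0.05 and a median of 0.03. Their lowest member was ATP2A2, the slow-fibre calcium pump, at -0.24 (adjusted p = 0.482). In the list of thin filament, Z disc, titin and intermediate filament genes, 1 of 7 was called (XIRP2) and the median was 0.10. ANKRD1, a stress-responsive partner of titin, was at 0.12 (adjusted p = 0.649).

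In glycolysis and glycogen 1 of 9 genes was called (PFKM) and the median was 0.01. The other 8 ran from TPI1 at -0.18 to UGP2, which makes UDP-glucose for glycogen, at 0.25 (limma adjusted p = 0.571). Of 9 mitochondrial genes limma called 0, with 1 at an unadjusted p below 0.05 and a median of 0.02. IDH2, the mitochondrial isocitrate dehydrogenase, was higher in 8 of 8 pigs by 0.22 (adjusted p = 0.272), and VDAC1, the channel of the outer membrane, was at -0.14 (adjusted p = 0.61). On table values IDH2 was at -0.14.

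Of 16 ribosome and translation genes limma called 0, with 2 at an unadjusted p below 0.05. In sign 11 were higher and 5 lower, with a median of 0.07. RACK1, a scaffold protein of the ribosome, was highest at 0.24 (95% interval 0.03 to 0.46, limma adjusted p = 0.38), and TPT1 was lowest. A second RACK1 feature, of lower mean value, went the other way, at -0.10 between the ages (adjusted p = 0.853). It was called below control at 7 d (-0.42, adjusted p = 0.00755). Of 3 cytoskeleton genes outside the sarcomere limma called 0, with 2 at an unadjusted p below 0.05. CFL1, cofilin, which severs actin filaments, was at 2.85, 3.07 and 3.42 (lowest, median and highest of 9) at 6 h and at 2.56, 2.82 and 3.07 at 7 d. Its 7 d values were below the lowest of 6 h in 8 of 9 lesions, and it was lower in 8 of 8 pigs by -0.30, short of the threshold (adjusted p = 0.0823). It passed without pig C (-0.32, adjusted p = 0.0417) and with array weights (-0.30, adjusted p = 0.0176), and in no other fit. With arrays median centred and scaled to the mean SD it was -0.15 (adjusted p = 0.879). With the 6 h array of pig F kept it was -0.05 (adjusted p = 0.954), and without pig H -0.23 (adjusted p = 0.264). TUBA1B, an alpha-tubulin, was at -0.17 (adjusted p = 0.254).

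Of 7 cytokine, stress and immune signalling genes limma called 0, and 0 were at an unadjusted p below 0.05 and a median of 0.003. The widest was B2M, the light chain of MHC class I, at 0.38 (95% interval -0.25 to 1.02, limma adjusted p = 0.779), and the lowest was FTH1, the ferritin heavy chain, at -0.22 (adjusted p = 0.569). Of 4 matrix and cell surface genes 1 was called (ANPEP), and the median was 0.01. Of 3 chaperone and protein turnover genes limma called 0, with 1 at an unadjusted p below 0.05 and a median of -0.08. CKM was the 1 measured gene of phosphocreatine handling, and of 25 genes of regeneration and muscle growth 0 were measured. These shares stand beside 1.62% called over all features and 3.31% over all genes.

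**Figure D5:**
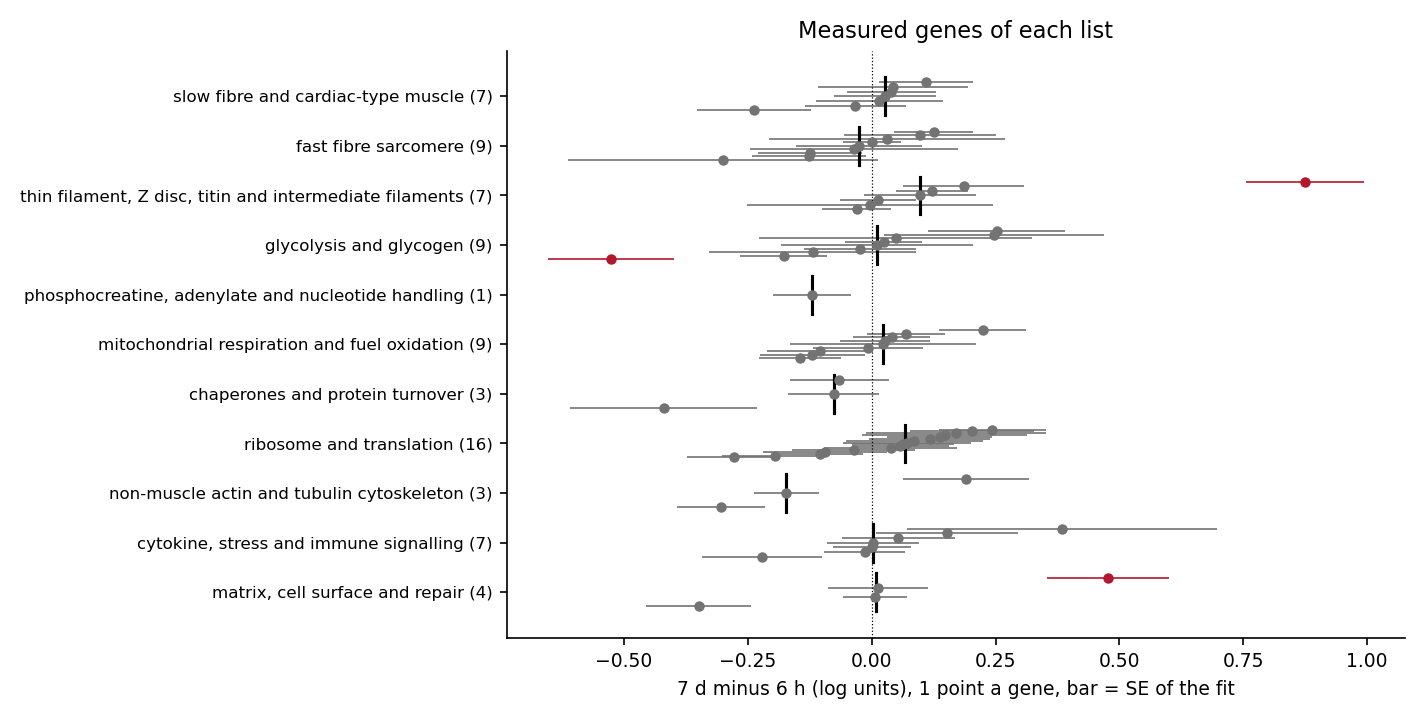
Difference between 7 d and 6 h lesions (horizontal axis, log units) of each measured gene of 11 lists, with the number of genes in brackets, bars for the SE of the fit, black ticks for the list median and red for called genes. List medians lie between -0.17 and 0.10, and the called genes are XIRP2, PFKM and ANPEP.

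Genes with several features are described here by symbol, with no test. The features of a symbol were read from the same arrays and are not independent. Over all tested features 48.2% were lower at 7 d, and 51.9% on table values. CKM had 10 features, of which 9 were lower at 7 d, with a median of -0.13, 0 called and 1 at an unadjusted p below 0.05. On table values 8 of the 10 were lower. TNNC2, the fast troponin C, had 12 features, of which 9 were lower, with a median of -0.10, 0 called and 2 at an unadjusted p below 0.05. MYLPF, a fast regulatory light chain, had 18, with 10 lower and a median of -0.02. ACTB, beta-actin, had 7, with 6 higher and a median of 0.08. Features of 1 symbol differed widely in mean value, from -0.38 to 1.33 for MYLPF and from -0.45 to 2.96 for TNNC2.

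The SD of the deposited values within an array was 0.744 ± 0.0926 (SD, n = 9) at 6 h and 0.607 ± 0.158 (n = 9) at 7 d, against 0.976 ± 0.237 (n = 10) in controls. Within pigs it was lower at 7 d by -0.105 on average (SD 0.128, n = 8), in 5 of 8 pigs. By a two-sided exact sign-flip test the p was 0.078, where 8 pigs allow 0.0078 at the smallest. On table values 75.1% of the features with a mean above the median were lower at 7 d (median -0.12), and after quantile normalisation 52.5% were (median -0.01). The share of bright features that were lower at 7 d thus depended on the scaling. The fitted differences of the 31 called features kept their sign, but not their size. For features 7474, 4769, 4832 and 4856 the lowest over all fits were 0.04, 0.09, 0.21 and 0.07. On table values features 7474, 4769 and 4832 were higher in 4 of 8 pigs and feature 4856 in 5 of 8. The 9 falls shared their direction on table values with most bright features.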

How the data were processed

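The deposited table held log values, a unit other than counts or intensities. Their base, centring and feature selection are not given in the sources used here. Per the labels, radioactive cDNA from 5 µg of RNA was hybridised to nylon arrays and read at 25 µm. The 2 columns of a sample were averaged (identical in 41 of 42 samples), and 47 arrays were quantile normalised. The fit used limma 3.58.1 (lmFit and eBayes, R 4.3.3) over 5 groups with pig as a fixed block, because each pig carried lesions of several ages. Deviations of the 2 ages correlated at a median of 0.07 within pigs and -0.02 between pigs. Exact sign-flip tests ran over 8 pigs. For single features they used the same arrays as the fit, and their p was not adjusted for the number of features. The replicates were separate muscle sites in separate animals. Arrays carry no counts, and their number limits the precision. The fit was tested on simulated data with known changes in 200 of 1908 features. It called 46% of the changes of 0.3 log units and 89% of those of 0.6, with 6 false calls. The data themselves gave 31 calls, and with fewer changed features the adjusted threshold is harder to pass. The simulated noise was independent between features, and the scaling of arrays was not simulated. Recovery in the real data can therefore be lower than these shares. A change of 0.3 can therefore be missed. Gene symbols came from the platform annotation and matched the current gene table for 204 of 206 features. Named were all called genes, the 2 members with the smallest p of each of 11 lists, 6 rises and 6 falls without a symbol, and genes of an earlier account. Other features were named after their values were seen. Members, lists and tests were chosen with earlier results of these data known.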

Additional observations from a re-analysis of the deposited data

Results flagged for a closer look

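Among 88 groups of 9 arrays, 10 held a lowest or highest array set apart from the nearest by more than 0.493 of the range, and chance gives about 1 in 20. In pig D the 6 h lesion was lowest for POMC (2.72, next 3.03) and for XIRP2 (0.76, next 1.14), and highest for MIF (0.567, next 0.0767). In pig G the 7 d lesion was lowest for POMC (2.48, next 2.72) and for CAPNS1 (0.156, next 1.49), and the 6 h lesion was lowest for QDPR (0.582, next 0.833) and for feature 4971 (0.494, next 1.06). The 7 d lesion of pig E was highest for TPM2 (1.38, next 0.664), and that of pig C was lowest for feature 7896 (0.828, next 1.53). The 6 h lesion of pig L was highest for MYL1 (0.216, next -0.145). Pigs D and G held 7 of the 10.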

How the results depend on the processing

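Of the alternatives, those that moved the count of 31 called features by over 1.5 times were table values (0), median centring (1), median centring with scaling to the mean SD (20), array SD as a covariate (19), array weights (68, with 36 higher and 32 lower) and the local trend (17). The count ran from 10 to 39 without 1 pig. The replicate block changed little, with 35 features and the same 4 genes without the block and 29 with pig as a random block. The 4 genes became 0 on table values and on median-centred values, 2 with scaling (PFKM, XIRP2), 2 with array SD as a covariate (PFKM, XIRP2), 2 with the local trend (ANPEP, XIRP2), 2 with the 6 h array of pig F kept (ANPEP, XIRP2) and 1 in the paired fit of the 2 ages (XIRP2). They ran from 1 to 5 without 1 pig. The difference in within-array SD was -0.136 over all arrays with no replicate block (two-sided exact permutation p = 0.0423) and ran from -0.128 to -0.0797 without 1 pig.

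Differences of genes that were not called changed sign in some settings. On table and on median-centred values these were MYH7 (-0.15 and -0.14), IDH2 (-0.14 and -0.13), RACK1 (-0.056 and -0.046), JAK1 (-0.097 and -0.087) and NPPA (-0.030 and -0.020). With array SD as a covariate NPPA was at -0.029, HTT at 0.060 and MAPK12 at 0.020, and with array weights NPPA was at -0.030 and HTT at 0.017. With the array of pig F kept HSPE1 was at 0.15, HTT at 0.048 and MAPK12 at 0.21. With pig J's 6 h array and pig I's control array both dropped, HTT was at 0.0099 and MAPK12 at 0.0039. HSPE1 was at 0.15 with scaling and QDPR at 0.020 with the local trend. Without 1 pig JAK1 ran from -0.0017 to 0.12, TPM2 from -0.022 to 0.15, NPPA from -0.044 to 0.099, HTT from -0.099 to 0.038 and MAPK12 from -0.049 to 0.043. The causes were not tested.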
